A study of Mus musculus with 4 samples.

Results

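The genes described here are 9 that are used to recognise dendritic cells: Flt3, Batf3, Irf4, Cd209a, Clec10a, Id2, Zbtb46, Xcr1 and Clec9a. They were chosen by symbol, and 8 of the 9 were among the 18194 genes named on the array, with 14 probe sets in all. For Clec9a, a receptor of dying cells on cross-presenting dendritic cells, no probe set carried the symbol, so it has no value here. Spleen cells selected for CD11b were sorted into Ly6Chigh and Ly6Clow monocytes from miR-146a-/- mice (KO, strain label B6(FVB)-Mir146tm1.1Bal/J) and from control littermates (WT, strain label C57BL/6). Each of the 4 groups had 1 array, made from RNA of several mice, and no age or sex is given in the sources used here. The treatment protocol may mean that a different red cell lysis buffer (RBC or ACT) was used for each genotype, and on that reading buffer and genotype cannot be told apart. The deletion is carried by all cells of the mouse, not by monocytes alone, and the CD11b selection also keeps dendritic and NK cells that carry CD11b. The mature strand of the deleted microRNA is shown as RefSeq gives it (GRCm38.p6, chr11:43374435-43374456, minus strand), with bases 2 to 8, the seed by which it finds its targets, in capitals.
mmu-miR-146a-5p: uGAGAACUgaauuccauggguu

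Conventional dendritic cells arise from precursors that keep the cytokine receptor FLT3, and they are divided into a cross-presenting lineage (cDC1), which needs BATF3 and IRF8, and a lineage that primes helper T cells (cDC2), which depends on IRF4. Monocytes share an early progenitor with them. In mice, part of the Ly6Chigh monocytes is known to carry dendritic cell genes such as Cd209a and can become dendritic cells in inflamed tissue.

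The 4 arrays were close in quality. Between 46.8% and 48.6% of probe sets were called Present by the authors' software, and the 3 prime to 5 prime ratio of actin lay between 1.20 and 1.42. No probe set was named for the deleted microRNA, so the genotype labels were not checked here. Each sorted fraction carried the genes of its label. Of 9 Ly6Chigh monocyte markers with a probe set 8 were at least 2-fold higher in Ly6Chigh in both genotypes, and of 11 Ly6Clow markers 7 were lower. Signals are linear intensities, and levels are compared within a probe set. The summed signals of marker lists add probe sets of different brightness, Absent ones included, and are compared between arrays only. The 95th percentile of signals called Absent, used below as the floor for undetected genes, lay between 24.6 and 29.9 on the 4 arrays.

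Of the 9 genes, 5 (Flt3, Batf3, Irf4, Cd209a and Clec10a) were higher in Ly6Chigh than in Ly6Clow monocytes in both genotypes, from 2.05-fold for Irf4 to 10.6-fold for Clec10a in WT and from 3.20-fold to 13.1-fold for the same genes in KO, with lower bounds for Flt3 and Cd209a given below. This rule asked for a difference of at least 2-fold (1 on the log2 scale), a Present call on the brighter array and a signal of at least 100 there, and it called 4.99% of 10535 tested genes higher in WT and 5.09% of 10410 in KO. It called 3.65% and 3.69% lower, with 0 members among them. Id2 was lower in Ly6Chigh, by less than 2-fold, and Zbtb46 and Xcr1 were Present on none of the arrays in their brightest probe sets. The label of dendritic cell genes high in the Ly6Chigh fraction therefore holds for 5 of the 6 members that could be tested, and not for Id2. Zbtb46 and Xcr1, known as marks of conventional dendritic cells, were not detected in the probe sets used, and Clec9a had none. The rule could not call these genes in either subset, so they say nothing for or against the label. Over the 8 genes with a probe set the median log2 ratio was 1.66 in WT and 2.08 in KO, and over all 18194 genes it was -0.03 and 0.02. Flt3 and Cd209a could enter the comparison only through their Ly6Chigh arrays, so these counts and medians describe the genes and are no test. In the authors' deposited table the same 5 genes were called increased in Ly6Chigh in both genotypes (12.8% of all genes in WT and 12.8% in KO) and Id2 decreased (11.2% in WT and 9.53% in KO).

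**Figure D1:**
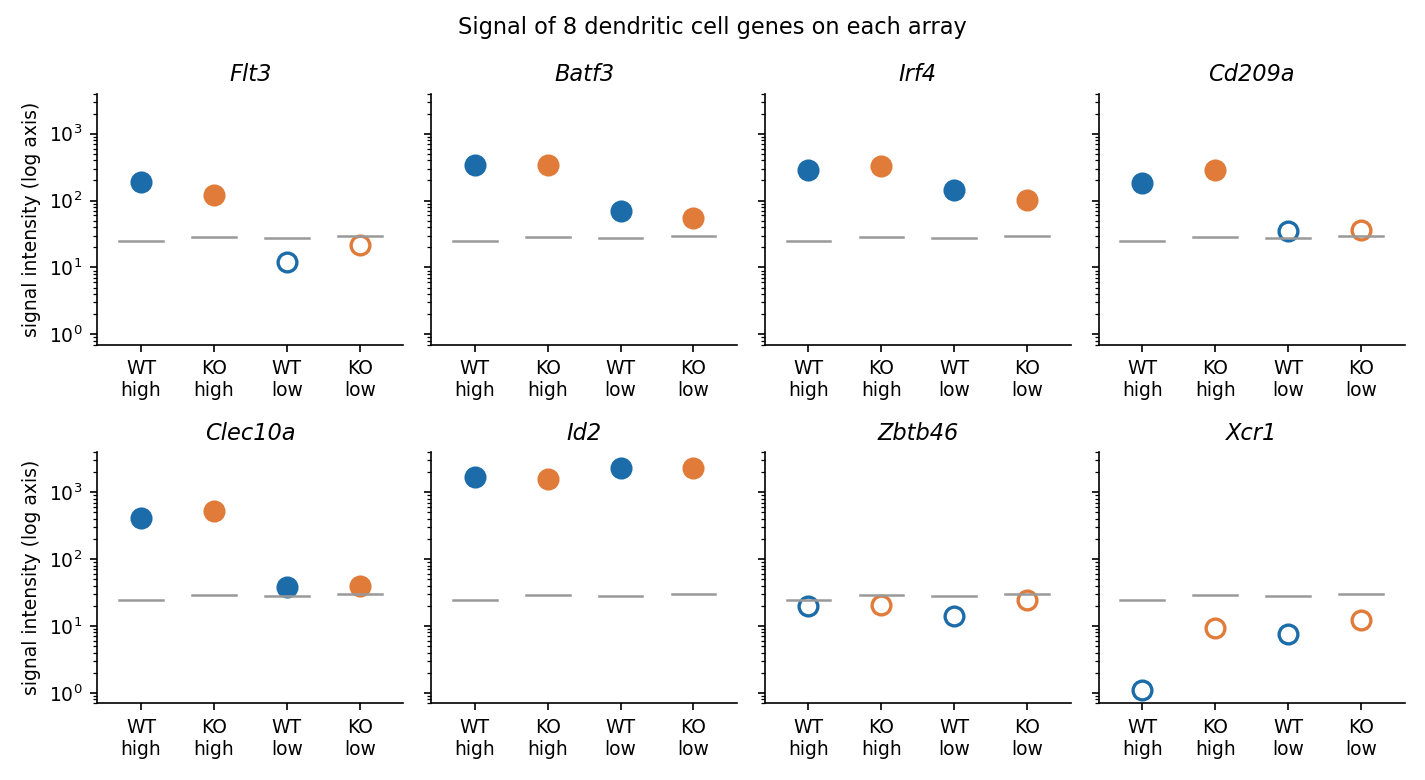
Signal intensity (log axis) of 8 genes on the 4 arrays, blue for WT and orange for KO, with 1 point per array. Filled points were called Present, open points Marginal or Absent, and the grey dashes mark the 95th percentile of Absent signals; Flt3, Batf3, Irf4, Cd209a and Clec10a lie higher on both Ly6Chigh arrays, Id2 lies slightly lower there, and Zbtb46 and Xcr1 lie under the dashes throughout.

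Flt3 encodes the receptor tyrosine kinase through which FLT3 ligand drives dendritic cell development. Its signal was 191.6 in WT Ly6Chigh, 120.5 in KO Ly6Chigh, 11.9 in WT Ly6Clow and 21.6 in KO Ly6Clow. It was detected on the Ly6Chigh arrays and Absent on both Ly6Clow arrays, where its signal lay under the floor. Against that floor Flt3 was at least 6.89-fold higher in Ly6Chigh in WT and at least 4.03-fold higher in KO.

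Among the transcription factors, Batf3 encodes the AP-1 family partner of IRF8 that cDC1 require. Batf3 signals were 344.1 and 336.7 on the WT and KO Ly6Chigh arrays and 70.6 and 54.6 on the WT and KO Ly6Clow arrays, all Present. The Ly6Chigh arrays lay 4.87-fold higher in WT and 6.17-fold higher in KO, and both Ly6Chigh arrays lay above both Ly6Clow arrays.

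Irf4 encodes the interferon regulatory factor of cDC2 and of monocyte-derived dendritic cells, and it also acts in B and plasma cells. Irf4 signals were 291.6 (WT) and 323.9 (KO) in Ly6Chigh and 142.5 (WT) and 101.2 (KO) in Ly6Clow, which is 2.05-fold and 3.20-fold higher in Ly6Chigh. Both Ly6Chigh arrays lay above both Ly6Clow arrays, but the WT ratio (log2 1.03) passed the 2-fold rule narrowly and stood at 0.89 with an offset of 32. The dimmer probe set of Irf4 was Present in Ly6Chigh only, at 52.1 (WT) and 38.4 (KO) against 14.7 and 23.5 in Ly6Clow, with log2 ratios of 1.83 and 0.71.

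Id2 encodes an inhibitor of E proteins that favours conventional over plasmacytoid dendritic cells and is also needed by NK and other innate lymphoid cells. Id2 signals were 1678.0 (WT) and 1577.8 (KO) in Ly6Chigh and 2325.3 (WT) and 2321.0 (KO) in Ly6Clow. Both Ly6Clow arrays were the higher ones, with log2 ratios of Ly6Chigh over Ly6Clow of -0.47 in WT and -0.56 in KO. The other probe sets of Id2 had ratios of -0.47 and -0.77 in WT and -0.60 and -1.11 in KO, so all 3 probe sets pointed the same way.

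Zbtb46 encodes a zinc finger repressor that marks conventional dendritic cells and their committed precursors. The brightest of its 4 probe sets read 19.7, 20.5, 14.0 and 24.4 in WT Ly6Chigh, KO Ly6Chigh, WT Ly6Clow and KO Ly6Clow and was Present on none. One other probe set was called Present on both Ly6Clow arrays, at 19.2 (WT) and 22.2 (KO) against Absent signals of 7.6 and 6.8 in Ly6Chigh. The authors' deposited table called this probe set decreased in Ly6Chigh in both genotypes (signed fold change -1.74 in WT and -3.03 in KO). All of these signals were under the floor, so no direction is given for Zbtb46.

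The lectin receptor genes had a wide distance between the subsets. Cd209a, a mouse homologue of the pathogen receptor DC-SIGN, had signals of 185.0 (WT) and 291.6 (KO) in Ly6Chigh and 35.1 (WT) and 36.6 (KO) in Ly6Clow. It was Present on the Ly6Chigh arrays, Absent on WT Ly6Clow and Marginal on KO Ly6Clow, which makes it at least 5.27-fold higher in Ly6Chigh in WT and at least 7.97-fold higher in KO. The other genes of its cluster, Cd209b, Cd209c, Cd209d, Cd209e, Cd209f and Cd209g, were Absent on every array, with signals from 0.4 to 25.0.

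Clec10a encodes the galactose-binding lectin MGL1 of macrophages and dendritic cells. It had signals of 414.2 (WT) and 522.7 (KO) in Ly6Chigh and of 38.9 (WT) and 39.9 (KO) in Ly6Clow, Present on all 4. The Ly6Chigh arrays lay 10.6-fold and 13.1-fold higher, and 0.911% of tested genes in WT and 0.730% in KO had a ratio as high. Mgl2, the gene of its close relative MGL2 and a cDC2 marker, was Absent on all arrays (1.7 to 24.4). Xcr1, the chemokine receptor by which cDC1 follow XCL1, read 1.1, 9.2, 7.6 and 12.2 in the order WT Ly6Chigh, KO Ly6Chigh, WT Ly6Clow and KO Ly6Clow, Absent throughout. Xcl1 itself was also Absent on all 4.

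To set the subset difference against a spread, an additive limma model of subset and genotype was fitted to all 11099 genes Present on at least 1 array. In this fit the WT and KO pools stand as the 2 samples of each subset. The adjusted p was under 0.05 for 4.14% of these genes higher in Ly6Chigh and for 2.94% lower. Clec10a rose in Ly6Chigh over Ly6Clow by 3.56 on the log2 scale (SE 0.146, limma adjusted p = 0.0308), Cd209a by 2.70 (SE 0.210, limma adjusted p = 0.0369) and Batf3 by 2.45 (SE 0.153, limma adjusted p = 0.0340), each higher on both Ly6Chigh arrays. Batf3 and Clec10a were Present on all 4 arrays. Cd209a, like Flt3, entered the fit only through its Ly6Chigh arrays, and both coefficients use Ly6Clow signals that were not called Present, so the pass of Cd209a adds nothing to the lower bounds above. Flt3 at 3.24 (SE 0.465, limma adjusted p = 0.0615), Irf4 at 1.36 (SE 0.223, 0.0719) and Id2 at -0.51 (SE 0.119, 0.101) did not pass. With median centring of the arrays Flt3 and Irf4 passed in limma as well (adjusted p 0.0474 and 0.0481), whereas limma called 0 genes of any kind when all probe sets of a gene were averaged (11386 genes, 3083 at an unadjusted p under 0.05) or when undetected genes were kept (18194 genes, 3086). In pooled RNA, fewer cells of a type and less RNA per cell cannot be told apart.

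**Figure D2:**
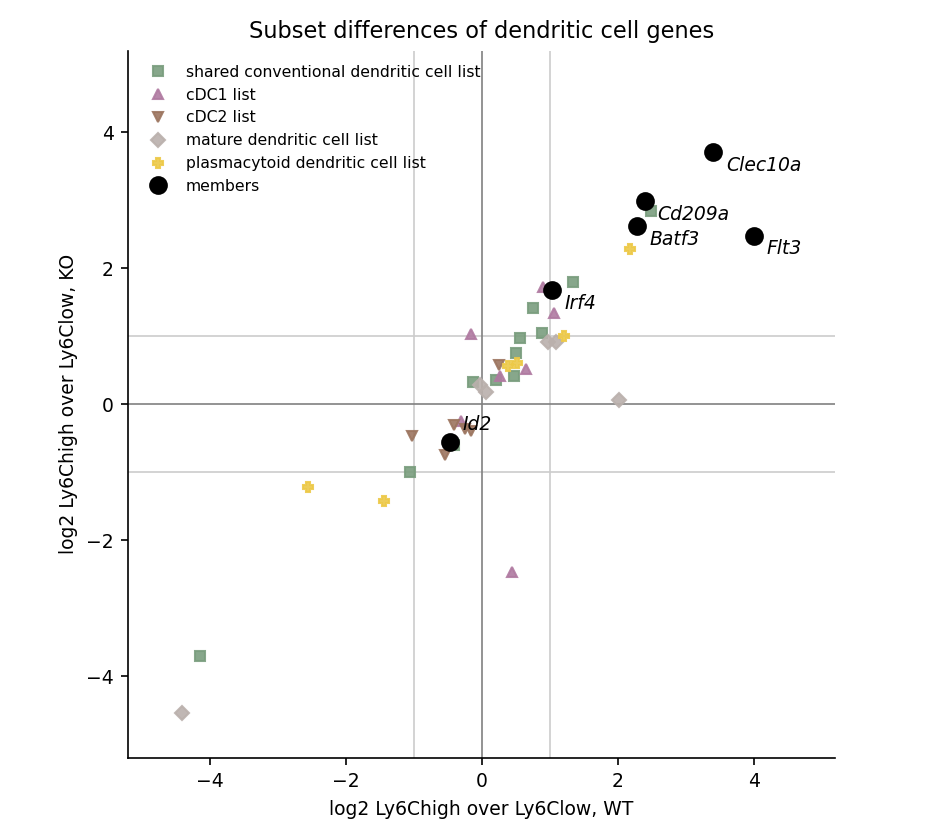
Log2 ratio of Ly6Chigh over Ly6Clow signal in WT (x axis) and in KO (y axis) for the members Present on at least 1 array (black circles, named) and for the Present genes of 5 dendritic cell lists, with grey lines at 2-fold. Clec10a, Cd209a, Batf3, Flt3 and Irf4 lie in the upper right, as do Ciita, Bst2, H2-Ab1, Naaa and Irf7 of the lists. Most other dendritic cell genes lie nearer to the centre. A shared gene and a maturation gene, Itgax (also a Ly6Clow monocyte marker) and Cd83, lie at the lower left. Ly6d and Spib of the plasmacytoid list lie on the same side but less far out.

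Other dendritic cell genes did not move as a block. Of 14 genes shared by conventional dendritic cells 11 were tested in WT, where 1 was higher and 1 lower in Ly6Chigh, and 12 in KO, where 4 were higher and 1 lower. The lower gene in both was Itgax, which encodes CD11c, with signals of 64.7 (WT) and 84.9 (KO) in Ly6Chigh and 1138.4 (WT) and 1100.4 (KO) in Ly6Clow. Itgax is also among the Ly6Clow monocyte markers counted above as lower in Ly6Chigh, so it is not particular to dendritic cells here. H2-Ab1, an MHC class II chain gene, was higher in Ly6Chigh in both genotypes (log2 1.35 and 1.80, limma adjusted p = 0.0495). H2-Aa (0.56 and 0.97), H2-Eb1 (0.76 and 1.41) and Cd74 (0.50 and 0.76) of the same list also lay higher in both. The rule called H2-Eb1 in KO only, and likewise Cd24a (0.89 in WT and 1.05 in KO). Ciita, the class II transactivator gene, went from 14.9 in WT Ly6Clow to 83.5 in WT Ly6Chigh and from 23.2 in KO Ly6Clow to 165.7 in KO Ly6Chigh, and passed the limma fit (2.66, SE 0.155, adjusted p = 0.0325), but in WT it stayed below the signal minimum.

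Of the cDC1 list, 11 of 12 genes had a probe set, and Naaa, a lysosomal acid amidase gene, was higher in Ly6Chigh in both genotypes (log2 1.06 and 1.35). Btla, an inhibitory receptor gene, was at 0.90 in WT and 1.73 in KO, and was called higher in KO. The rule thus called 1 of 6 tested genes of the list in WT and 2 of 7 in KO. Irf8, whose product works with BATF3 in cDC1 and is also a monocyte regulator, was Present everywhere, at 1518.1 (WT) and 1346.9 (KO) in Ly6Chigh and 963.9 (WT) and 939.1 (KO) in Ly6Clow, a ratio under 2-fold. The cDC1 surface genes Cd8a and Itgae were Absent on all arrays, while Wdfy4 and Snx22 of the list were Present on all 4. Tlr3 was Present only in Ly6Chigh, at 23.0 (WT) and 45.6 (KO) against Absent signals of 25.5 and 22.3 in Ly6Clow. Of the cDC2 list, 6 genes were tested in each genotype and 0 passed the 2-fold rule, and limma called 0 of the 6. Of 10 maturation genes, Cd83 was lower in Ly6Chigh (log2 -4.40 in WT and -4.54 in KO). Cd40 (log2 0.98 in WT and 0.91 in KO) and Cd80 (1.1 and 0.92) lay higher in Ly6Chigh, Present on all 4 arrays. The 2-fold rule called neither, and the WT Ly6Chigh signal of Cd80 (89.5) was below the signal minimum. In limma neither passed (adjusted p 0.0543 for Cd40 and 0.055 for Cd80). Ccr7, the receptor of migrating dendritic cells, and the chemokine genes Ccl17 and Ccl22 were Absent on every array. The median log2 ratios of the lists in WT and KO were 0.50 and 0.58 for the shared genes, 0.46 and 0.52 for cDC1, -0.32 and -0.37 for cDC2 and 0.07 and 0.23 for maturation genes, over their tested genes, against -0.01 and 0.01 over all tested genes.

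Partners and relatives of the 9 genes were mostly level between the subsets. Of 27 such genes 26 had a probe set and 17 were tested, with 1 higher and 1 lower in Ly6Chigh in both genotypes. The higher one was Irf7, a regulator of interferon genes (693.9 and 741.1 in WT and KO Ly6Chigh, 300.6 and 367.0 in WT and KO Ly6Clow). The lower one was Zbtb16, a zinc finger factor gene, at log2 -1.91 in WT and -2.08 in KO. Batf, a relative of Batf3, was at log2 0.44 and 0.27, and the E protein genes Tcf3, Tcf4 and Tcf12, whose products Id2 restrains, lay between -0.13 and 0.61. Csf1r, the macrophage growth factor receptor that monocytes keep, was at -0.23 and -0.40, and Itgam, the CD11b gene of the bead selection, at 0.38 and 0.53.

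Markers of other cells were read on the same arrays, and their part in the subset differences was not tested. Plasmacytoid dendritic cell genes were Present for 6 of 11 in WT Ly6Chigh and WT Ly6Clow and for 5 of 11 on both KO arrays, with summed signals of 2195.0 (WT) and 2106.6 (KO) in Ly6Chigh and 1338.3 (WT) and 1237.8 (KO) in Ly6Clow. Bst2 and Irf7 were called higher in both genotypes and Ly6d lower in WT, and the defining genes Siglech and Ccr9 were Absent on all 4. Spib was Present on all 4 and lower in Ly6Chigh (log2 -1.44 in WT and -1.42 in KO, limma adjusted p = 0.0377). Its signals (20.4 and 11.6 against 55.5 and 31.1) stayed below the signal minimum. The 8 progenitor genes summed to 353.6 and 285.5 in WT and KO Ly6Chigh against 50.0 and 59.0 in Ly6Clow. Prtn3, a protease gene of the list, was Present in Ly6Chigh (198.0 and 151.5) and Absent in Ly6Clow (4.4 and 12.1), as was Ctsg (50.1 and 21.2 against 0.6 and 1.5), while Kit and Elane were Absent throughout. Neutrophil genes summed to 3778.5 and 2412.2 in Ly6Chigh against 1958.6 and 1569.9 in Ly6Clow, with 4 or 5 of 9 Present. Lcn2 was called higher in Ly6Chigh in both genotypes (25.6-fold and 10.7-fold, limma adjusted p = 0.0429) and S100a8 in WT (2.49-fold), while Cxcr2, Camp and Ltf were Absent everywhere. NK and innate lymphoid genes summed to 229.3 and 323.7 against 162.4 and 130.8, with 1 to 4 of 13 Present, and the Present ones alone to 128.0 and 252.4 against 16.6 and 12.9. Klrk1 was Present at 90.3 and 149.5 in Ly6Chigh and Absent at 4.2 and 24.4 in Ly6Clow, and was called higher in Ly6Chigh in the KO comparison. Klrd1 was also Present only in Ly6Chigh, and Il2rb, Nkg7 and Gata3 were Absent on all arrays. Gzma was Present only in Ly6Clow (16.6 and 12.9, against Absent signals of 6.7 and 13.9 in Ly6Chigh), all under the floor. B cell genes, listed because Irf4 also acts in B cells, had lower sums in Ly6Chigh, with 360.6 and 244.1 in Ly6Chigh against 1262.9 and 1026.5 in Ly6Clow, 3 to 5 of 7 Present, Cd22 and Ms4a1 called lower in both genotypes and Pax5 Absent throughout. Plasma cell genes summed to 5500.5 and 5757.7 against 6146.2 and 5874.6, with 3 to 5 of 6 Present. Most of each sum was Xbp1 (5259.6 and 5528.4 against 5893.9 and 5704.8), so the sums say little of the other genes. In WT, Jchain (log2 -1.57) and Mzb1 (-1.76) were lower in Ly6Chigh and Prdm1 was higher (0.70). In KO, Prdm1 was at 0.95, and Jchain and Mzb1 were Absent on both arrays. The 2-fold rule called 0 genes of this list. Red pulp macrophage genes summed to 2904.8 and 3189.3 against 3432.6 and 3740.5, with 6 to 8 of 12 Present and Vcam1 Absent. Within that list Axl was called higher in Ly6Chigh in both genotypes (219.1 and 169.8 against Absent signals of 23.2 and 23.2, limma adjusted p = 0.0308) and Mrc1 in KO (191.4 against 18.1, and 99.1 against 16.1 in WT, limma adjusted p = 0.0392), while Spic was lower in both (log2 -1.60 and -1.52). Of the T cell genes 1 or 2 of 6 were Present, with Cd3e and Cd3d Absent on all arrays, and of the eosinophil, basophil and mast cell genes 0 of 10.

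Genes whose 4 signals followed a member most closely were looked for among 7399 others, by the root mean square difference of the mean-centred log2 signals over the 4 arrays. With 4 points per gene the measure says nothing of shared function. Batf3 was followed within 0.033 by Ccr2, a chemokine receptor gene of classical monocytes, then by Vwa5a (0.056) and Nme1 (0.072). Cd209a was nearest to Ahr, the gene of the aryl hydrocarbon receptor (0.062), whose signals were 1586.5 (WT) and 2251.3 (KO) in Ly6Chigh and 281.2 (WT) and 311.1 (KO) in Ly6Clow, and then to Stard9 and Dmxl2 (0.15 each). Irf4 was nearest to Lactb2 (0.058), Btla (0.063) and Idh2 (0.081), and Clec10a to Bex6 (0.080), Fgl2 and Plxnd1 (0.13 each). The nearest genes to Flt3 were farther off, Sgms2 at 0.28, Ccdc102a at 0.29 and Wfdc17 at 0.30, and the Ly6Clow signals of Flt3 and Cd209a were not called Present.

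**Figure D3:**
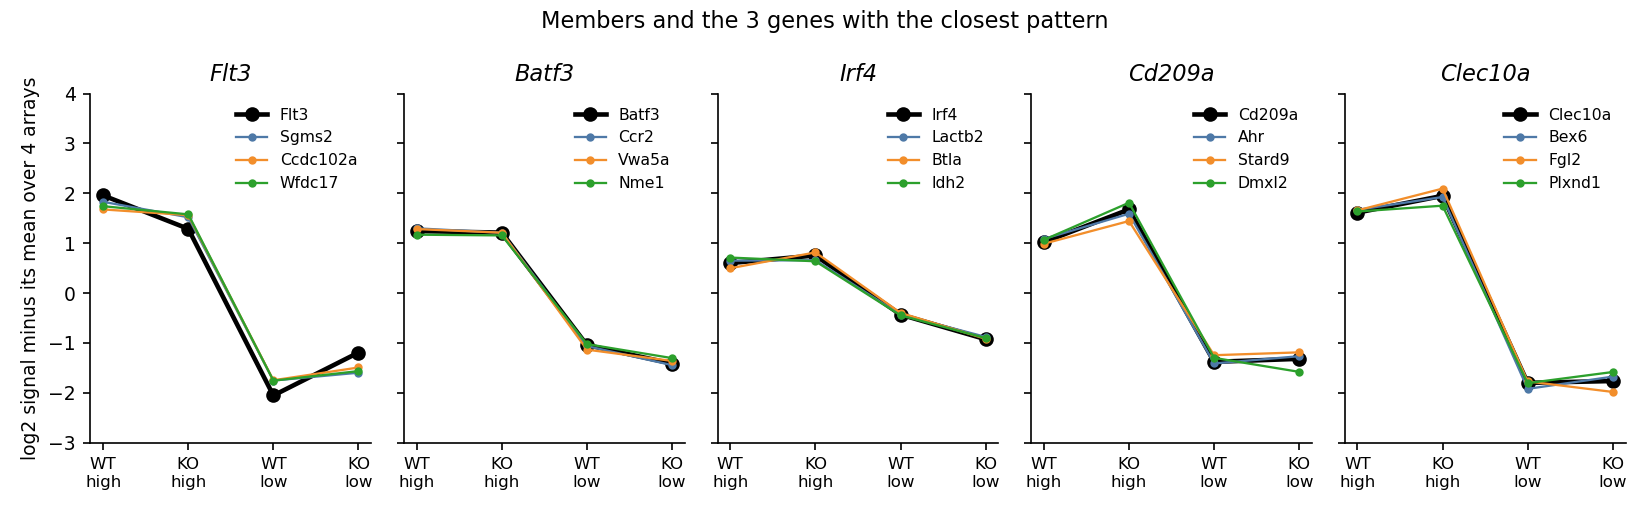
Log2 signal minus its mean over the 4 arrays (y axis) on each array (x axis) for 5 members (black) and the 3 genes with the smallest root mean square difference from each (colours). The lines of Batf3 and Ccr2 differ by 0.033 and those of Cd209a and Ahr by 0.062, while Flt3 has no gene closer than 0.28.

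The promoters of the genes that were higher together in Ly6Chigh are shown to compare their sequence, as the 250 bases before the start of each gene in RefSeq (GRCm38.p6). Of the 9 genes, 8 were matched in that table, and Clec10a was not. A script searched both strands for GAGGAA, the core bound by the myeloid factor PU.1, and for TGANTCA, the AP-1 site to which BATF factors bind with JUN partners. Capitals mark the matches found, 1 core in Batf3 and 1 in Irf4 (as its reverse complement TTCCTC).
Flt3, chr5:147400490-147400739, minus strand: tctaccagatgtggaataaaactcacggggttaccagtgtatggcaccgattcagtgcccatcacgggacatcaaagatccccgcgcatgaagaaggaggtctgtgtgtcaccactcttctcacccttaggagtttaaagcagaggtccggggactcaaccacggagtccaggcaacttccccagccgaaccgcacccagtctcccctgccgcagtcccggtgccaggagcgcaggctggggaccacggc
Batf3, chr1:191098164-191098413, plus strand: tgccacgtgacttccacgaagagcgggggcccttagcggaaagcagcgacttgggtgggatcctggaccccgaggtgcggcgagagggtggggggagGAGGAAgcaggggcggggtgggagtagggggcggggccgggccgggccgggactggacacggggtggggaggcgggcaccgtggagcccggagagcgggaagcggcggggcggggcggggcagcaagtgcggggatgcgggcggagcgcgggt
Irf4, chr13:30748983-30749232, plus strand: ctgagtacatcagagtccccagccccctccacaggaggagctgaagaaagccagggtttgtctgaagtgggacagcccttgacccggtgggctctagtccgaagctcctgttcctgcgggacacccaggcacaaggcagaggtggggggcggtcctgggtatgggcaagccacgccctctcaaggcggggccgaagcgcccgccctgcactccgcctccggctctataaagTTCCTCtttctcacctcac
Cd209a, chr8:3748985-3749234, minus strand: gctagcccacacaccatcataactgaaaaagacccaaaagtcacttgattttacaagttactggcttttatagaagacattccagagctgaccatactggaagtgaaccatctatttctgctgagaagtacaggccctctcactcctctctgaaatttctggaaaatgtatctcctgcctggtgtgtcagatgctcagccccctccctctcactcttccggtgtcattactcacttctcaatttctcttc
The PU.1 core was held by 23.3% of 32851 such windows and the AP-1 site by 6.75%. The AP-1 letters had 0 matches in these 4 windows, which says only that they are not there. The windows differed in composition. The observed over expected frequency of CG pairs was 0.919 for Batf3, 0.597 for Flt3, 0.437 for Irf4 and 0.0878 for Cd209a, and 13.2% of all windows had fewer than Cd209a.

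None of the members passed the 2-fold rule between KO and WT. In Ly6Chigh 0 of 6 tested members and in Ly6Clow 0 of 4 were called, where the rule called 0.269% of 10402 and 0.196% of 10191 genes either way. In Ly6Chigh monocytes Flt3 went from 191.6 in WT to 120.5 in KO (log2 -0.67) and Cd209a from 185.0 to 291.6 (log2 0.66). Clec10a was at 0.34, Irf4 at 0.15, Batf3 at -0.03 and Id2 at -0.09, and the median size of the change over tested genes was 0.20. Flt3 and Cd209a thus stood in opposite directions, and 8.37% and 8.68% of tested genes lay as far from 0.

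In Ly6Clow monocytes Irf4 was at log2 -0.49, Batf3 at -0.37 and Clec10a at 0.04, and Id2 had almost equal signals (2325.3 in WT and 2321.0 in KO). Flt3 and Cd209a were not Present on either Ly6Clow array, so a genotype difference could not be measured there. In the authors' deposited table, Flt3 was called decreased in KO Ly6Chigh (signed fold change -1.62) and Cd209a (1.52) and Clec10a (1.32) increased, where it called 4.50% of all genes decreased and 4.68% increased. The same authors' deposited table called none of the 8 genes with a probe set changed in Ly6Clow (0 of 8), where it called 1.48% of all genes increased and 2.2% decreased. Neutrophil genes differed by genotype on the Ly6Chigh arrays, with summed signals of 3778.5 in WT and 2412.2 in KO, and 2 of 5 tested, S100a8 (1823.4 in WT and 796.5 in KO) and Lcn2 (482.0 and 205.8), were called lower in KO. On the Ly6Clow arrays neutrophil genes summed to 1958.6 in WT and 1569.9 in KO, with 0 called. There S100a8 was at log2 -0.87 and S100a9 at -0.93 (-0.85 in Ly6Chigh), while Lcn2 was level (0.03). The part of neutrophil genes in the values of Flt3 and Cd209a was not tested.

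In the additive limma fit, which averages the subsets, 0 of 6 members and 0 of all 11099 genes had an adjusted p under 0.05 for genotype, with 0 members and 700 genes at an unadjusted p under 0.05. The 95% intervals of the log2 coefficient were -0.29 to 0.66 for Clec10a, -0.70 to 0.30 for Batf3, -0.90 to 0.55 for Irf4 and -0.43 to 0.34 for Id2, all Present on the 4 arrays. Here the Ly6Chigh and Ly6Clow pools stand as the samples of each genotype. The intervals thus hold no spread between repeat pools of a group, and they do not exclude a 2-fold change in either subset. The coefficients of Flt3 (0.10, from -1.42 to 1.61, limma adjusted p = 0.953) and Cd209a (0.36, from -0.33 to 1.04, limma adjusted p = 0.746) average the Ly6Chigh ratio with one between Ly6Clow signals not called Present, so they are no measure of a genotype effect.

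**Figure D4:**
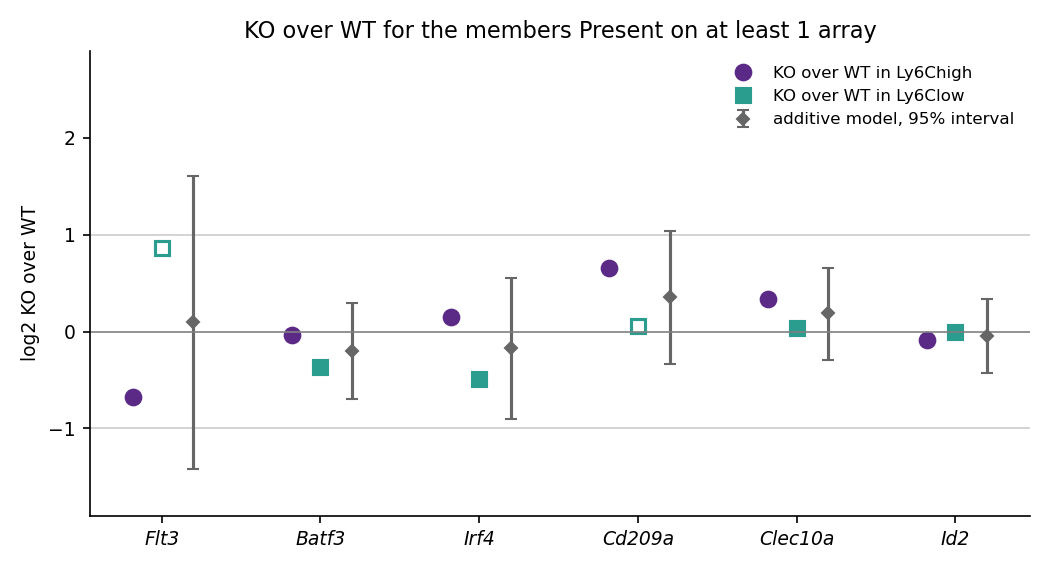
Log2 ratio of KO over WT signal for the 6 members Present on at least 1 array, in Ly6Chigh (circles) and Ly6Clow (squares, open where neither array was Present), with the additive limma coefficient and its 95% interval (diamonds) and grey lines at 2-fold. All points lie within 2-fold, and Flt3, whose coefficient also uses Absent Ly6Clow signals, has the widest interval (-1.42 to 1.61).

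The subset difference kept its direction without miR-146a for all 5 genes higher in Ly6Chigh. Its log2 size was larger in KO for Batf3 (2.62 against 2.29), Irf4 (1.68 against 1.03), Cd209a (2.99 against 2.40) and Clec10a (3.71 against 3.41) and smaller for Flt3 (2.48 against 4.01). The values of Flt3 and Cd209a rest on Ly6Clow signals not called Present. With 1 array per group these differences between genotypes could not be tested.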

How the data were processed

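Affymetrix mouse genome arrays were hybridised with RNA pooled from several mice. Per the labels, Expression Console 1.2.1 produced the raw data, and the submitters' processing notes name GCOS. The deposited signal intensities are linear and had been scaled by the authors to a trimmed mean of 150.0 on each array. How probes were summarised is not stated there. Detection calls and detection p-values were computed with the Affymetrix software, per the file headers. The authors' deposited table also gave signed fold changes and change calls, which are quoted as theirs. A second deposited value table held the same 180404 values (0 differed).

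Of 45101 probe sets 34958 carried 1 symbol, updated through a RefSeq table of assembly GRCm38.p6. Each gene was taken from its probe set of highest mean signal, without an offset. Pairs of arrays were compared by log2 ratio, with no test. Where the dimmer array was not Present, the fold is a lower bound: the brighter signal is divided by the 95th percentile of that array's Absent signals, or by the dimmer signal where this is higher. limma 3.58.1 (lmFit, eBayes, R 4.3.3) fitted subset and genotype with 1 residual degree of freedom and Benjamini-Hochberg adjustment, and was tested on simulated data. Its p-values measure only the spread between these pools. The number of arrays limits the precision.

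The members and lists were chosen with earlier results of these data known. All members are named whatever their values, as are up to 4 called genes per list, Itgax, Irf8, Mgl2, Siglech, Csf1r and Itgam, and the 3 closest genes of each member. Other genes were named after their values were seen, to account for a list. The alternatives tried were the mean of all probe sets, median centring, quantile normalization, an offset of 32, no signal minimum, stricter and looser detection filters and an empirical Bayes trend.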

Additional observations from a re-analysis of the deposited data

Results flagged for a closer look

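The KO over WT ratio of Irf4 had opposite signs in the subsets, at log2 0.15 in Ly6Chigh and -0.49 in Ly6Clow, a difference of -0.65 that was not tested, with 1 array per group. Its dimmer probe set gave -0.44 and 0.68 with Absent signals in Ly6Clow, and the authors' deposited table gave Irf4 a fold change of 1.23 in Ly6Chigh and 1.07 in Ly6Clow, with no change called in either.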

How the results depend on the processing

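The additive limma fit itself compares the subsets within each genotype. No paired analysis was possible beyond it because each group had 1 array and the labels give no replicate numbers. Leaving out an array would leave the limma fit no residual degree of freedom, so the values within each genotype stand in for it. Asking for a Present call on both arrays left 3 of 4 tested members called between the subsets in each genotype, since Flt3 and Cd209a were not Present in Ly6Clow. That filter called 840 of 9057 genes in WT and 814 of 8886 in KO. The other alternatives kept 5 calls in each genotype, except that 4 remained in WT with an offset of 32 (Irf4 at 0.89). They called between 670 of 10777 and 1655 of 10535 genes in WT, and between 711 of 10654 and 1577 of 10410 in KO. For KO over WT all alternatives gave 0 called members. The limma count for subset was 3 of 6 members, where limma called 786 of 11099 genes. It became 0 when probe sets were averaged and 0 with undetected genes kept, where limma called 0 genes in all. Median centring gave 5 of 6, with 1046 of 11099 genes called. An offset of 32 gave 6 of 6 and so did the empirical Bayes trend (Id2 lower in both), where limma called 4317 and 4590 of 11099 genes. The count was 3 of 6 with quantile normalization (620 of 11099 genes called). It was 4 of 4 tested members among genes Present on all 4 arrays, where limma called 3352 of 8590 genes. Without the signal minimum the 2-fold rule called 1655 genes in WT and 1577 in KO between the subsets, against 911 and 914, and 340 in Ly6Chigh and 323 in Ly6Clow between the genotypes, against 28 and 20, and with averaged probe sets 34 in Ly6Clow. The smallest adjusted p of a member for subset in limma thus ranged from 2.45e-94 (trend) to 0.249 (undetected genes kept). The degrees of freedom that eBayes borrowed from all genes were infinite with the trend. They were 18.6 with the offset, 1.89 in the main fit and 1.16 with undetected genes kept. The trend p-values thus treat each gene's spread as known, which 4 arrays cannot give. The limma count for genotype was 0 members in each alternative, with adjusted p of at least 0.407, and Cd209a was the 1 member with an unadjusted p under 0.05, with an offset of 32, where 106 genes were called (287 with the trend). The genotype coefficient changed sign for Flt3 with median centring (-0.02) and an offset of 32 (-0.13) and for Id2 with the mean of its probe sets (0.03) and quantile normalization (0.00), all near 0. An offset of 32, added to both signals, by arithmetic lowered the log2 ratio of dim genes, for Flt3 to 2.35 in WT and 1.51 in KO. The cause of the other shifts was not tested. Signals not called Present limit what can be said of Zbtb46, Xcr1 and of Flt3 and Cd209a in Ly6Clow.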
